A study of Arabidopsis thaliana with 6 samples.

Results

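The genes described here are the 100 whose reading on a single array, ground replicate 2, lay farthest below the lowest reading of the other 5 arrays. They were taken from 13264 nuclear genes, each represented by 1 probe set (a group of short probes for one transcript). The gap to the lowest other array, called the score below, is a difference of log2 values. The genes were chosen by these readings, which are therefore given as a description with no test. The study profiled shoots of Arabidopsis thaliana seedlings of the Landsberg (LER-0) accession, grown in darkness in petri dish fixation hardware and kept in RNAlater, either flown on the space shuttle (flight, 3 arrays) or as a ground control (3 arrays). In both groups the arrays carry the replicate numbers 2, 3 and 4, and no transgene, mutant or seedling age is named in the labels. Whether the 3 arrays of a group stand for different dishes is not in the labels, so the p-values below reflect how far these samples vary, and that variation could be technical.

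Genes low in 1 sample of a group and not in the others are not a response that the design can test: with 1 array for that sample, a difference of the seedlings and a difference of the array cannot be told apart. Such genes still bear on the comparison of flight with ground, because 1 low reading lowers the ground mean and widens the ground spread. Of the 100 genes, 19 carry a gene symbol in the RefSeq table, where 11.1% of all genes scored do, and 81 have none there. No role is given for the latter, except for AT5G64120, which the table's synonyms name. Those with a symbol include regulators of transcription, parts of the machinery that makes and processes RNA, enzymes of amino acid and purine metabolism, and enzymes of the cell wall and the secretory pathway.

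The array medians lay between 2.15 and 2.24, and the readings ran from 0.63 to 12.98. The hybridization spike-ins averaged 9.61 on ground replicate 4 and from 10.13 to 10.20 on the rest, ground replicate 2 included at 10.20. The difference between the 3′ and 5′ probe sets of the GAPDH control transcript, a sign of RNA integrity, was 1.46 on ground replicate 2 and from 1.62 to 1.88 on the others, and for actin it was 4.08 against 3.68 to 4.66. Ground replicate 2 correlated with the other arrays at 0.937 to 0.951 (Pearson's r across 22810 probe sets, which are not independent replicates). Among marker genes of the labelled tissue, RCA (Rubisco activase) read 5.59 to 6.91. Of the shoot meristem and leaf primordium markers, YAB3 read 3.98 to 5.12 and CLV3 read 1.03 to 1.57, below all array medians. The root hair markers EXPA7 and EXPA18 read 0.96 to 1.89, below all array medians, while PYK10, a beta-glucosidase of roots and young seedlings, read 9.45 to 10.87.

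One gene stood apart from all others. AT5G15780 read 1.82 on ground replicate 2, against 6.16 and 7.31 on ground replicates 3 and 4 and 6.41, 7.03 and 6.93 on flight replicates 2, 3 and 4. Its score was 4.34, and the reading of 1.82 lay below the median of that array. The 5 other readings spanned 1.15. The second highest score among the 100 genes was 1.78, and the median score was 0.86.

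**Figure D1:**
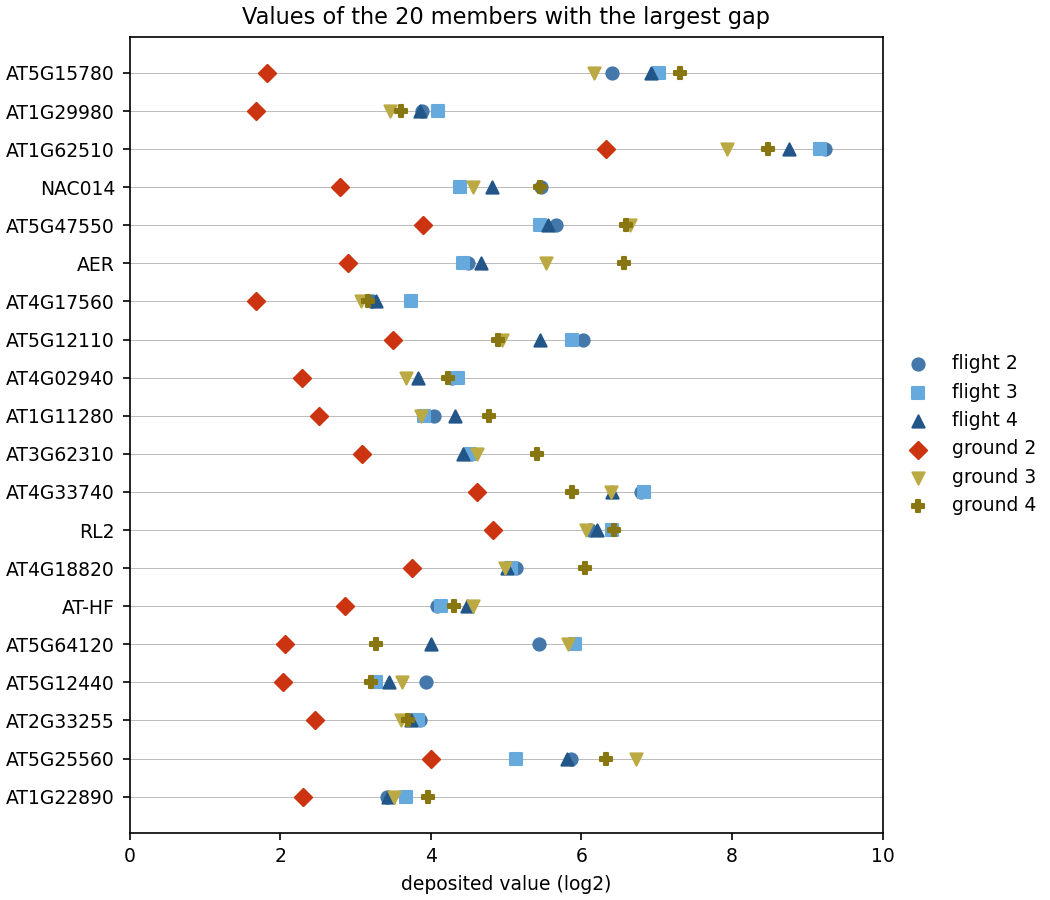
Deposited log2 values (horizontal axis) of the 20 genes with the highest score (rows), with 1 symbol per array as given in the legend. AT5G15780 at the top reads 1.82 on ground replicate 2 and from 6.16 to 7.31 on the rest, while in the rows below the gap is 1.12 to 1.78.

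Over all 22746 probe sets other than controls, which also hold those with several annotated genes or none, 4 had a gap of at least 2 on ground replicate 2. One is AT5G15780, 1 is assigned to several genes and 2 to none. Of the latter, the probe set with the larger gap read 3.82 on ground replicate 2 and 7.01 to 7.45 elsewhere, a gap of 3.19. A gap of at least 3 was found on no array other than ground replicate 2, where 2 probe sets had one. The largest gaps on the other arrays were 1.13, 1.51 and 1.32 on flight replicates 2, 3 and 4 and 2.26 and 2.89 on ground replicates 3 and 4.

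Below AT5G15780 the gaps on ground replicate 2 were of the size found on the other ground arrays. With the score computed for each array in turn, 29 genes had a gap of at least 1 on ground replicate 2, 33 on ground replicate 3 and 38 on ground replicate 4, against 1, 5 and 2 on flight replicates 2, 3 and 4. The 100th score was 0.68, 0.69 and 0.77 on ground replicates 2, 3 and 4 and 0.37, 0.53 and 0.34 on the flight arrays. Ground replicate 2 was the lowest of the 6 arrays for 1884 genes, or 14.2%, the lowest share of any array. The highest share, 19.5%, was that of ground replicate 4. The counts on the ground arrays depended on the scaling: centred on the spike-ins, they were 37, 60 and 7 on ground replicates 2, 3 and 4. In the opposite direction, 30 genes were highest on ground replicate 2 alone by at least 1, with a largest gap of 3.16 and a 100th gap of 0.73.

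**Figure D2:**
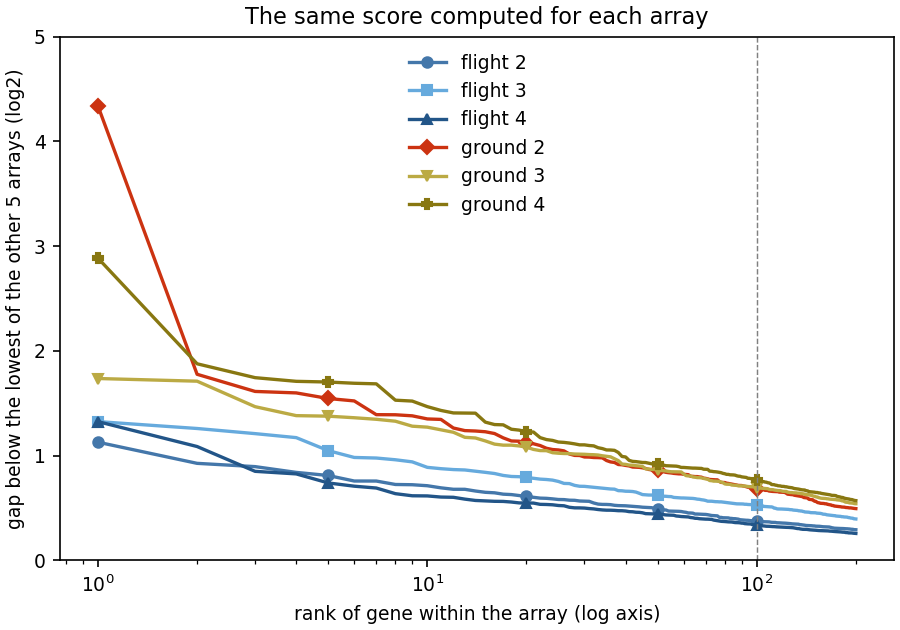
Gap in log2 units by which a gene's reading on 1 array lies below the lowest reading of the other 5 (vertical axis), for the 200 highest gaps of each array by rank (log axis), with a line per array and a dashed line at rank 100. The ground replicate 2 line starts at 4.34 and from the second rank runs near those of the other ground arrays, above the 3 flight lines.

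Relative to the median of the other 5 arrays, the 100 genes were lower on ground replicate 2 by a median log2 difference of -1.21, with a range of -5.10 to -0.69. The other 5 readings of a gene spanned 0.05 to 4.79, with a median span of 0.78 against 0.58 over all genes scored. In 62 of the 100 genes the score exceeded that span. The span was at least 2 in AER, AT5G64120, AT3G62040 and AT5G60760. On ground replicate 2, 38 of the 100 genes read below the array's median, against 3 to 5 on the other arrays. In 32 genes ground replicate 2 alone read below the median of its array, and detection calls were not used here, so the size of these drops rests on a dim reading. The second lowest reading was on a flight array in 53 genes and on ground replicate 3 or 4 in 47.

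**Figure D3:**
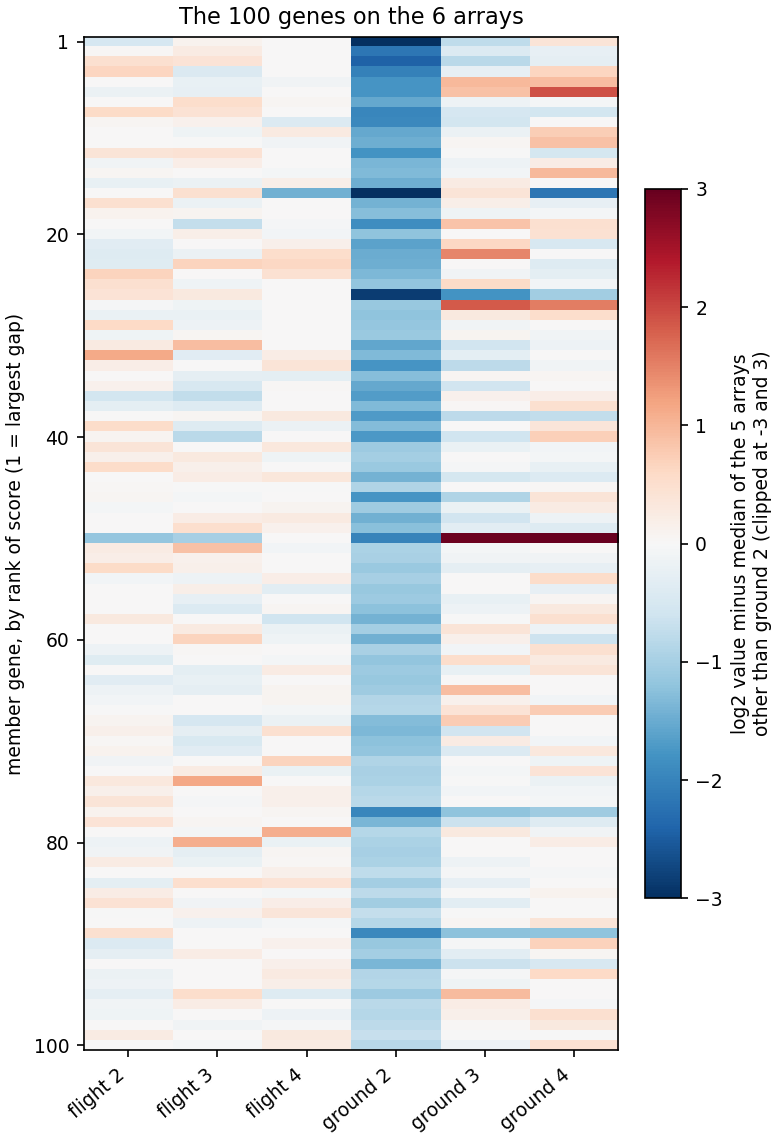
Readings of the 100 genes (rows, by rank of score) on the 6 arrays (columns), as the log2 value minus the median of the 5 arrays other than ground replicate 2, with blue for lower and red for higher, clipped at -3 and 3. The ground replicate 2 column is blue in every row because the rule chose it, and AT5G60760 at rank 50 is the row with the strongest red, on ground replicates 3 and 4.

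The genes with symbols are described next by role. Those that the naming rule did not take (GAUT15, FAC1, THO7, ETL1, SBT3.12, LD, GPDHp, MAC3A, NANA, AAH, ATO, NRPA2 and GMII) were named after their values were seen, because they carry a symbol. Among the transcription factors, NAC014 (AT1G33060), of the plant-specific NAC family, read 2.79 on ground replicate 2, 4.56 and 5.45 on ground replicates 3 and 4, and 5.46, 4.39 and 4.81 on flight replicates 2, 3 and 4. Its flight readings and those of ground replicates 3 and 4 overlapped. EEL (AT2G41070), a bZIP factor that acts on late embryogenesis genes in seeds, read 6.05 on ground replicate 2, 9.05 and 8.73 on ground replicates 3 and 4, and 7.16, 7.07 and 7.20 in flight. It thus had 3 tiers, with the flight arrays in the middle. SPCH (AT5G53210, SPEECHLESS), the basic helix-loop-helix factor that starts the stomatal lineage, read 1.23 on ground replicate 2 and from 1.96 to 2.13 on the rest. All 6 SPCH readings lay below the medians of their arrays. MUTE and FAMA, the factors that act after SPCH in that lineage, read 0.89 to 1.19 and 1.24 to 1.49, with ground replicate 2 at 0.98 and 1.38, inside the range of the other arrays.

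LD (AT4G02560, luminidependens), a nuclear protein of the autonomous pathway to flowering, read 2.44 on ground replicate 2, 3.3 and 3.71 on ground replicates 3 and 4, and 3.88, 4.1 and 4.15 in flight. ETL1 (AT2G02090, CHROMATIN REMODELING 19), a chromatin remodelling protein, read 3.13 on ground replicate 2 and 4.02 to 4.44 elsewhere. The 5 other readings spanned 0.85 in LD and 0.42 in ETL1, above and below the median span of the 100 genes.

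Further genes with a symbol take part in making and processing RNA. The grouping by role only orders the description, and shares of such roles over all genes are not given here. NRPA2 (AT1G29940), the second subunit of RNA polymerase I, which transcribes ribosomal RNA genes, read 3.23 on ground replicate 2 and 4.01 to 4.74 elsewhere. Of 12 measured genes for subunits of the nuclear RNA polymerases, 4 were lowest on ground replicate 2, and the median difference of that array from the median of the other 5 was 0.01, against 0.03 over all genes. NRPA1, the largest subunit of the same polymerase, read 1.97 there and 2.17 to 3.35 elsewhere.

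THO7 (AT3G02950), part of the THO complex that couples transcription to messenger RNA export, read 2.07 on ground replicate 2, 3.03 and 3.61 on ground replicates 3 and 4, and 3.74, 3.14 and 3.64 in flight. A further gene with the symbol THO7 (AT5G16790) read 2.1 on ground replicate 2 and 2.39 to 2.63 elsewhere. THO5 read 3.82 on ground replicate 2 and 4.09 to 4.59 elsewhere. THO1 was also lowest on ground replicate 2, while TEX1, the fifth THO complex gene measured, was highest there at 3.96 against 3.22 to 3.84. Their differences from the median of the other arrays ran from -1.54 to 0.19. The THO, polymerase, peroxidase, bZIP, subtilase and histidine families were collected by symbol or synonym. Each was taken because it held 1 of the 100 genes under such a name. Genes without such a name were not counted, so a family may hold more of the 100. The family counts use the readings that chose those genes, so nothing is read from them.

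Of the splicing proteins, MAC3A (AT1G04510), a subunit of the spliceosome-associated MOS4 complex, read 3.77 on ground replicate 2 and 4.60 to 5.30 elsewhere. ATO (AT5G06160, ATROPOS), a splicing factor subunit, read 1.95 on ground replicate 2, 2.74 and 3.3 on ground replicates 3 and 4, and 3.44, 3.02 and 3.78 in flight. No gene of the list of splicing and RNA processing genes compiled for comparison (4 measured, SE, LSM1A, UPF3 and FY) was lowest on ground replicate 2.

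Among the metabolic enzymes, AER (AT5G16970, alkenal reductase), which reduces reactive aldehydes, read 2.90 on ground replicate 2, 5.53 and 6.56 on ground replicates 3 and 4, and 4.50, 4.42 and 4.66 in flight. Like EEL it was lowest on 1 ground array and highest on the other two. AT-HF (AT4G26900, HISN4), an enzyme of histidine synthesis, read 2.86 on ground replicate 2 and 4.08 to 4.56 elsewhere. IGPD and HISN5B, the other measured genes of that pathway, read 2.08 and 1.78 on ground replicate 2, inside or above the range of the other arrays.

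FAC1 (AT2G38280), an AMP deaminase needed in the embryo, read 3.6 on ground replicate 2 and 4.65 to 5.35 elsewhere. AAH (AT4G20070, allantoate amidohydrolase), which releases nitrogen from purine breakdown, read 1.74 on ground replicate 2, 3.80 and 3.03 on ground replicates 3 and 4, and 3.12, 2.54 and 2.86 in flight. These are enzymes of purine turnover, at different steps. GPDHp (AT5G40610), a plastid glycerol-3-phosphate dehydrogenase, read 1.62 on ground replicate 2 and 2.46 to 3.3 elsewhere.

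Genes of the wall and of secreted or membrane proteins were the last group with symbols. GAUT15 (AT3G58790), of the galacturonosyltransferase family that includes pectin-building enzymes, read 1.80 on ground replicate 2, 4.02 and 2.91 on ground replicates 3 and 4, and 3.06, 3.40 and 3.55 in flight. GMII (AT5G14950, golgi alpha-mannosidase II), which trims the sugar chains of secreted proteins, read 3.48 on ground replicate 2 and from 4.25 to 5.59 elsewhere. RL2 (AT5G45160, RHD-like2), related to the GTPase RHD3 that shapes the endoplasmic reticulum, read 4.82 on ground replicate 2 and 6.06 to 6.44 elsewhere. The RL2 readings of the other 5 arrays spanned 0.38.

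SBT3.12 (AT4G21326), a subtilase protease, read 2.41 on ground replicate 2 and 3.29 to 3.34 elsewhere, a span of 0.05 that was the smallest of the 100. Of 10 measured subtilase genes, 2 were lowest on ground replicate 2. NANA (AT3G12700), an aspartic protease, read 4.73 on ground replicate 2 and 5.53 to 6.21 elsewhere.

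AT5G64120, which the RefSeq table gives as peroxidase 71 (PRX71), read 2.06 on ground replicate 2, 5.82 and 3.27 on ground replicates 3 and 4, and 5.43, 5.92 and 4.00 in flight. Class III peroxidases are secreted enzymes that crosslink or loosen wall polymers. Ground replicate 4 and flight replicate 4 were also low for it, so the gap of 1.21 is smaller than the span of 2.64 among the other arrays. Prx37 (AT4G08770) had a like order, at 1.68 on ground replicate 2, 4.69 and 2.29 on ground replicates 3 and 4, and 5.42, 6.78 and 3.91 in flight, and its gap of 0.61 left it outside the 100. Of 6 peroxidase genes measured under such a name, 3 were lowest on ground replicate 2.

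The genes with high scores and no symbol in the table behaved in several ways. AT1G29980 read 1.68 on ground replicate 2, 3.46 and 3.61 on ground replicates 3 and 4, and 3.89, 4.09 and 3.85 in flight. AT1G62510 read 6.32, 7.94 and 8.48 on ground replicates 2, 3 and 4 and 9.24, 9.17 and 8.76 in flight. In both every flight array lay above ground replicates 3 and 4, and ground replicate 2 was lowest by the rule. AT5G47550 read 3.90, 6.64 and 6.60 on the ground arrays and 5.66, 5.45 and 5.55 in flight, so the ground arrays enclosed the flight arrays. AT4G17560 read 1.68 on ground replicate 2 and 3.07 to 3.73 elsewhere, and AT4G02940 read 2.29 and 3.67 to 4.36. AT2G33255, at 2.47 and 3.61 to 3.86, had the narrowest span of these, 0.25.

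AT5G12110 read 3.5, 4.95 and 4.89 on the ground arrays and 6.03, 5.87 and 5.44 in flight. AT4G33740 read 4.62, 6.40 and 5.88 on the ground and 6.80, 6.83 and 6.40 in flight. AT5G25560 read 4.00, 6.72 and 6.33 on the ground and 5.86, 5.14 and 5.81 in flight. AT1G11280, AT3G62310, AT4G18820, AT5G12440 and AT1G22890 completed the 20 highest, with scores of 1.35, 1.35, 1.24, 1.17 and 1.12. In the first 3 of these and in AT1G22890 the highest reading was on ground replicate 4. Further genes without a symbol were named for their high mean reading. AT1G23650 read 5.02, 7.97 and 6.50 on the ground and 6.12, 6.33 and 7.02 in flight. AT3G11830 read 5.85 on ground replicate 2 and 6.68 to 7.0 elsewhere, and AT3G58660 read 5.49 and 6.21 to 6.50.

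The last gene inside the list, AT1G08040, had a score of 0.6834 and read 3.06 on ground replicate 2 and 3.75 to 4.35 elsewhere. The first outside, AT1G14390, had 0.6817 and read 2.03 and 2.71 to 3.22. Scores were continuous there, and 36 of the 100 genes had a score under 0.8.

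Each gene was read by 1 probe set, and a second probe set assigned to a single gene existed for only 1 of the 100, AT2G28540. Its second probe set read 1.36 on ground replicate 2 and 1.72 to 3.43 elsewhere, again lowest on that array, by 0.37. For the other 99 genes the low reading has no such second measurement here. The 100 genes lay on all 5 nuclear chromosomes, with 24, 15, 18, 13 and 30 on chromosomes 1 to 5. On chromosome 5 they were 1.0% of the genes scored, and on the other chromosomes 0.659% to 0.700%. Only 3 pairs of them lay within 5 protein-coding genes of each other, EEL beside AT2G41060, AT5G64120 near AT5G64100, and ATO near AT5G06120. The 100 lowest genes of the other 5 arrays held 0 to 2 such pairs each.

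Of 37 gene lists compiled for comparison (hormones, light, stress, cell wall, cytoskeleton, nutrition, cell division, RNA and protein turnover and others), 36 had at least 1 gene among those scored. These held 142 genes, of which 0 were among the 100, while the 100 are 0.754% of all genes scored. Most listed genes were not scored, with 10 of 32 in the cytoskeleton list measured. The 0 therefore cannot show that these pathways are absent from the 100. SPCH was the only one of the 100 in the 7 lists of cell type markers. The vascular list had 0 measured genes and each of the others 1 to 4, so these lists cover few genes. For the cytoskeleton genes that the series title names, 10 were measured, 0 were lowest on ground replicate 2, and their median difference from the other arrays was -0.33. In the lists with at least 3 measured genes, this median ran from -1.81 (seed reserve) to 2.32 (LEA and dehydrin). Of the other 5 arrays 3 are flight arrays, so a difference of flight from ground also enters these medians. Without ground replicate 2, the median flight minus ground change (log2) was 1.06 (cytoskeleton), -4.87 (seed reserve) and -6.13 (LEA and dehydrin). These medians therefore do not describe ground replicate 2 alone.

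The comparison of flight with ground was fitted without ground replicate 2, since that array chose the genes. The score treats the other 5 arrays alike, but ground replicate 2 is itself a ground sample, and whether the choice of genes favours a direction in this comparison was not tested. With limma on all 22746 probe sets, 3 flight arrays against 2 ground arrays, 8 of the 100 genes passed an adjusted p under 0.05, where 8.38% of all probe sets did, so the share was close to the background. This background is not matched for level: the median of the mean readings was 3.79 for the 100 genes and 1.97 for all genes scored. Of the 8, 4 were higher in flight (4.94% over all) and 4 lower (3.44% over all). The median log2 change of the 100 genes was 0.03, against -0.0049 over all probe sets. Of the 100 changes 51 were above 0, with 49.4% above 0 over all probe sets. Every flight array lay above both ground arrays in 26 of the 100 genes and below both in 15, where the shares over all probe sets were 20.5% and 18.8%.

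**Figure D4:**
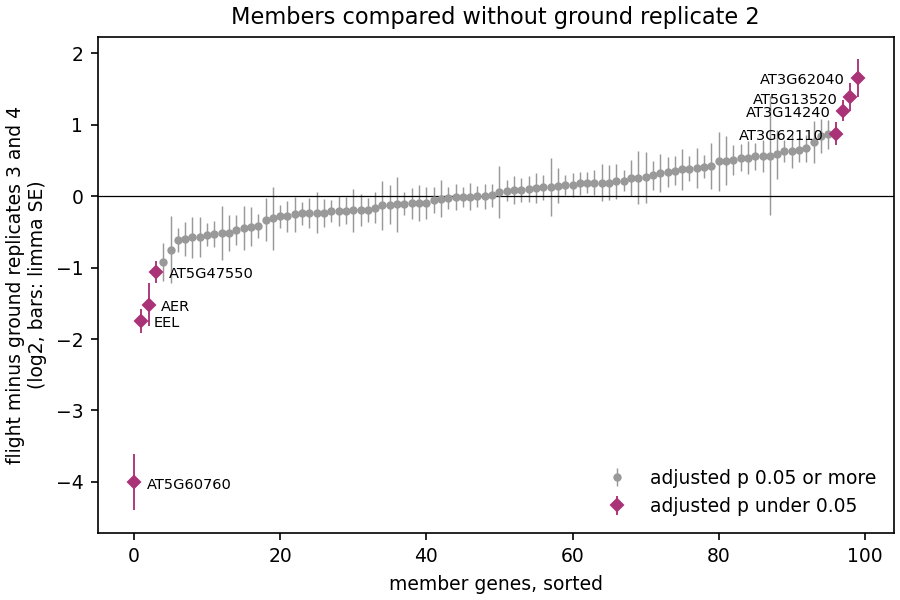
Log2 change between flight and ground replicates 3 and 4 (vertical axis, bars show limma's standard error) for the 100 genes in order of change, with the 8 that passed an adjusted p under 0.05 as named diamonds. The changes run from -4.01 to 1.65 with a median of 0.03, and most lie within 1 of zero.

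AT5G60760 showed the largest difference of the 8. It read 2.74, 2.88 and 3.89 on flight replicates 2, 3 and 4, 6.82 and 7.53 on ground replicates 3 and 4, and 1.88 on ground replicate 2. Its log2 change without ground replicate 2 was -4.01 (SE 0.39, limma adjusted p 0.0039). With all 6 arrays it was -2.24 with an adjusted p of 0.420. EEL changed by -1.75 (SE 0.16, adjusted p 0.0037), from a ground mean of 8.89 (n = 2) to 7.14 ± 0.07 in flight (SD, n = 3). AER changed by -1.52 (SE 0.30, adjusted p 0.0323) and AT5G47550 by -1.06 (SE 0.15, adjusted p 0.0111).

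In these 4 genes the flight arrays lay between ground replicate 2 and the other ground arrays, an order that the choice of the genes and the direction of the call fix together. With all 6 arrays none of the 4 passed, with adjusted p from 0.420 to 0.932 in limma. Seed storage transcripts also differed among the arrays. PAP85, a vicilin-like storage protein gene, read 10.91 and 10.57 on ground replicates 3 and 4, 1.54 on ground replicate 2, and 1.90, 1.30 and 7.38 on flight replicates 2, 3 and 4. The summed log2 level of the 3 measured seed and embryo markers was 25.3 and 25.6 on ground replicates 3 and 4, 5.35 on ground replicate 2 and 7.37, 5.43 and 14.9 in flight. Of these 3 markers, 2 passed as lower in flight against ground replicates 3 and 4, OLEO3 and AT3G01570 (limma adjusted p 0.0129 and 0.0039). PAP85 did not pass (0.0539). Flight replicate 4 was the highest flight array for PAP85 and also for AT5G60760, EEL and AER, but not for AT5G47550. The flight readings of EEL ran only from 7.07 to 7.20 and those of AER from 4.42 to 4.66, so this order rests on small differences there. The part of seed transcripts in these 4 differences was not tested. In whole shoots, fewer cells of a type and less RNA per cell cannot be told apart.

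In the 4 genes that were higher in flight, every flight array lay above ground replicates 3 and 4. Ground replicate 2 was the lowest array in them by the choice of the genes. AT3G62040 read 4.94, 4.81 and 4.52 in flight and 1.68, 2.72 and 3.49 on ground replicates 2, 3 and 4, a log2 change of 1.65 (SE 0.26, adjusted p 0.0161) without ground replicate 2. AT5G13520 read 3.53, 3.04 and 3.06 in flight and 1.1, 1.81 and 1.84 on the ground, a change of 1.38 (SE 0.20, adjusted p 0.0116). AT3G14240 read 4.85, 4.74 and 4.81 in flight and 2.79, 3.54 and 3.68 on the ground, a change of 1.19 (SE 0.15, adjusted p 0.0072). AT3G62110 read 3.54, 3.59 and 3.84 in flight and 1.84, 2.75 and 2.81 on the ground, a change of 0.87 (SE 0.16, adjusted p 0.0265). All ground readings of AT5G13520 lay below the medians of their arrays, so the size of its change rests on dim readings. AT3G62110 missed the threshold with each of the 5 arrays left out in turn (limma adjusted p 0.0621 to 0.0854), and with spike-in centring its adjusted p was 0.307. AER missed it without flight replicate 2, 3 or 4 (0.0864 to 0.122), AT5G47550 without flight replicate 3 (0.0546), and AT3G62040 without flight replicate 2 or 3 (0.0584 and 0.076). AT5G60760, EEL, AT3G14240 and AT5G13520 passed without each of the 5 arrays, but AT3G14240 missed the threshold with spike-in centring (0.093).

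**Figure D5:**
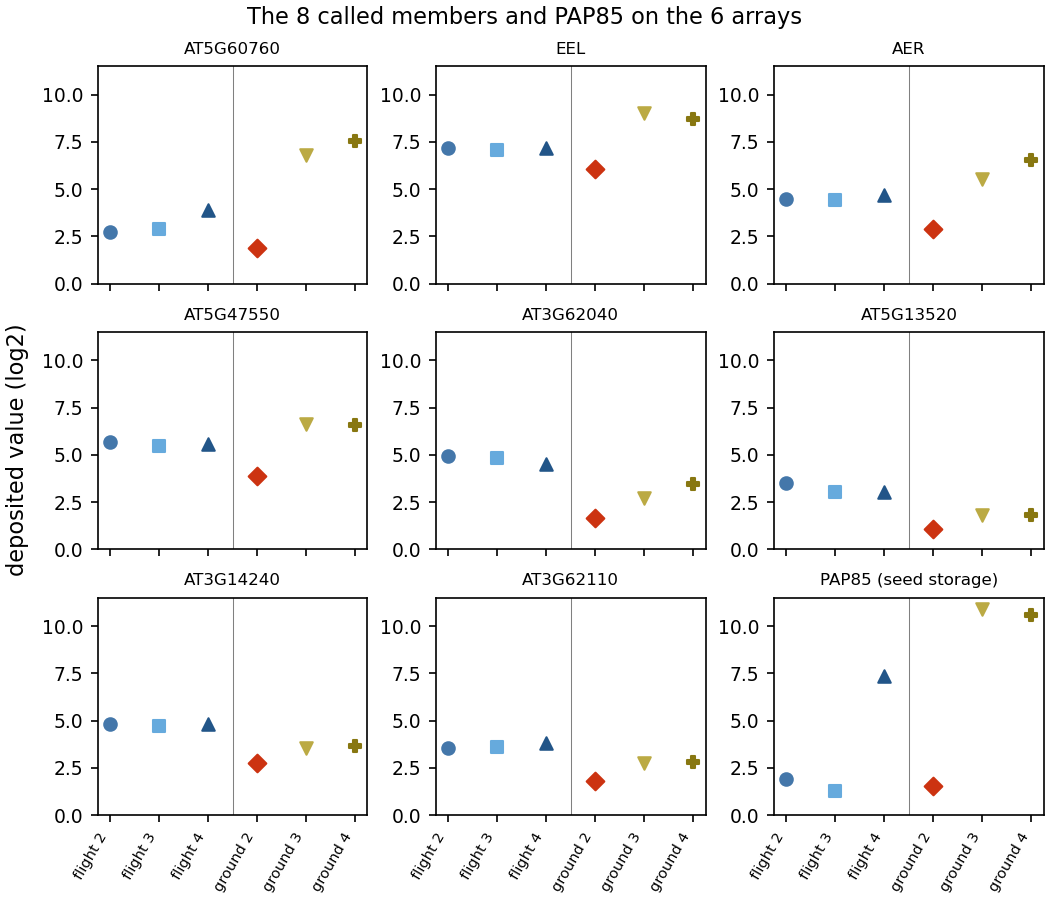
Deposited log2 values (vertical axis) of the 8 genes that passed without ground replicate 2, and of the seed storage gene PAP85, on the 3 flight and 3 ground arrays (horizontal axis, 1 symbol each). In AT5G60760, EEL, AER and AT5G47550 the flight arrays lie between ground replicate 2 and the other ground arrays, and in the other 4 genes they lie above all 3. Ground replicate 2 is the lowest array in all 8 genes because the rule chose them by it.

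With all 6 arrays, 3 of the 100 genes were called, AT3G62040, AT3G14240 and AT5G13520, all higher in flight (3 of 100, with 5.94% of all probe sets called in either direction and 4.13% higher). This contrast contains the array that chose the genes, which fixes much of the direction. In it 88 of the 100 changes were above 0 (46.9% over all probe sets), with a median of 0.40. Nothing is read from these counts. For AT5G15780, the gene with the largest gap, the log2 change was 1.69 with a SE of 1.26 (limma adjusted p 0.521) with all 6 arrays, and 0.05 with a SE of 0.36 (adjusted p 0.958) without ground replicate 2. For NAC014 the values were 0.62 (SE 0.64, adjusted p 0.649) and -0.11 (SE 0.38, adjusted p 0.912).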

How the data were processed

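The analysis started from the deposited value table, whose values are read as log2 intensities on the scale the authors used, an inference from their range. The submitters' processing notes list RMA, PLIER and MAS5, with no word on which produced the table. RNA was amplified with a whole-transcriptome kit and biotin-labelled, per the labels' protocols. Nothing was normalized again. Of 22810 probe sets, 64 controls were left out of the tests. The platform annotation gave 13513 probe sets 1 gene each. Of these, 13436 were matched by gene identifier, 48 by locus tag and 18, organelle genes, by symbol to RefSeq (assembly TAIR10.1), and 11 kept their annotated symbol. All 100 members matched by gene identifier. The probe set with the highest mean over 6 arrays stood for a gene.

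For flight against ground, limma 3.58.1 ran in R 4.3.3 (lmFit, eBayes, two-sided, Benjamini-Hochberg over 22746 probe sets), without ground replicate 2 and with all 6 arrays, after a test on simulated data. Of 100 simulated log2 changes of 1, the fit without ground replicate 2 recovered 9 and the fit with all 6 arrays 32. Of 100 changes of 2 they recovered 70 and 85, so a gene that did not pass may still differ. The number of arrays limits the precision. Members, gene lists and tests were chosen with earlier results of these data known. The symbol FDH was dropped from the epidermis markers after its value was seen, since it matched formate dehydrogenase and not the epidermal gene meant. The naming rule took the 20 highest scores, list members, genes called without ground replicate 2, the genes at the edge of the list, the 8 highest mean readings and symbol stems shared by at least 3 members (none were). Promoter and protein sequences were not used here. Figures were drawn with matplotlib 3.10.9.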

Additional observations from a re-analysis of the deposited data

How the results depend on the processing

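The list depends on how the gap is defined. Of the 100 genes, 87 stayed among the 100 highest scores with quantile normalization, 95 with median centring, 83 with spike-in centring and 99 when a gene's probe sets were averaged. With the median of the other 5 arrays in place of the lowest, 12 stayed, and the cause was not tested. Among genes with a mean of at least 4, 45 stayed, which are all the members that reach that mean, and with every probe set eligible 47 did. When 1 of the other arrays was left out of the score (chosen after the data were seen, as were the eligible probe sets and median centring of the counts by array), 63 to 88 stayed, the fewest without ground replicate 4. Among genes with a mean of at least 4, those with a gap of at least 1 were counted again. They numbered 17, 25 and 29 on ground replicates 2, 3 and 4 and 1, 4 and 1 on flight replicates 2, 3 and 4. With no filter on the mean, spike-in centring gave 60 on ground replicate 3 and 7 on ground replicate 4. Without ground replicate 2, the 8 calls became 4 with the replicate block, where 2 were higher and 2 lower and AT5G47550, AER, AT3G62040 and AT3G62110 were lost (adjusted p 0.0553, 0.058, 0.0719 and 0.0786), 15 at an adjusted p under 0.1, and 4 to 9 with 1 array left out (5 without flight replicate 2, 4 without flight replicate 3). With all 6 arrays the 3 calls became 4 with the block and 0 to 8 with 1 array left out: 0 without any 1 flight array (13 or 14 at an unadjusted p under 0.05 in limma) and 8 without ground replicate 2. In the main fit with all 6 arrays, 18 of the 100 genes and 21.0% of all probe sets had a limma unadjusted p under 0.05. Shares over all probe sets in the alternatives are not given here, so nothing is read from the counts in the alternatives. AT3G14240 and AT3G62110 did not pass with spike-in centring. Among the 32 genes of the naming rule no score changed sign in these alternatives, nor did the log2 change of any of the 8 called genes; scores of the other genes with a symbol were not recomputed. Readings near or below the array medians limit how low a value can be ordered. Same-numbered flight and ground arrays had correlations of 0.20, -0.03 and 0.27 between their deviations from group means (numbers 2, 3 and 4), so the numbers were not taken as pairs.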
